A study of Rattus norvegicus with 39 samples.

Results

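Transcripts of the heterotrimeric G protein cycle and of cAMP turnover were followed in the CA1 field of the rat hippocampus of animals that differed in exposure to corticosterone, the chief adrenal glucocorticoid in this species. A gene was taken as a member when its platform symbol began with Gna, Gnb, Gng, Rgs or Adcy, or with Pde and a digit. Probe sets that carried several symbols were not used, which left out 2. The rule found 49 of the 4736 genes with a symbol on the array, measured by 77 probe sets. They were 9 G alpha subunits, 5 G beta subunits, 5 G gamma subunits, 9 regulators of G protein signalling (RGS), 7 adenylyl cyclases and 12 phosphodiesterases. The prefix also took in 2 genes of another kind, Adcyap1 and Adcyap1r1, which encode the peptide PACAP and its receptor. Of the 77 probe sets, 57 (38 genes) had a mean signal at or above the 30th percentile of all probe sets, a log2 value of 6.28, and were tested. The 20 dimmer ones entered a fit without that filter, and only some of them are described singly.

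A receptor bound by its ligand makes the G alpha subunit exchange GDP for GTP and part from the beta-gamma pair. Gs activates adenylyl cyclases, Gi restrains several of them, and RGS proteins speed the hydrolysis of GTP that ends the signal. Phosphodiesterases break down cAMP and cGMP, so the level of these messengers depends on both arms. In hippocampal pyramidal neurons cAMP and its kinase act on excitability and on long-lasting synaptic change, and corticosteroid receptors are abundant in the same cells.

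The animals were 39 male Fisher 344 rats, 18 months old at the end, with 1 array of CA1 tissue each. The Sham group (n = 10) had intact adrenals and a pellet without hormone. All other animals were adrenalectomized and carried a corticosterone pellet for 3 months, of 25 mg in LowCORT (n = 10) and of 200 mg in IntermediateCORT (n = 9). Animals called injected here (n = 10) had the 25 mg pellet and were given 5 mg corticosterone per day on 4 days. Animals on the 25 mg pellet kept a saline and sucrose drink. Where they are compared with Sham or IntermediateCORT, fluid and hormone dose cannot be told apart. The comparisons ask which transcripts follow chronic replacement and which respond to a short rise. Each of the 4 groups enters 3 of the 6 comparisons, so these are not independent.

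The contrast of LowCORT with Sham was visible in Sgk1, a kinase gene induced by glucocorticoids. Its log2 levels were 9.43 ± 0.59 in Sham and 7.93 ± 0.17 in LowCORT (SD, n = 10 each, adjusted p = 2.9e-07 by limma). Its level was 8.64 ± 0.47 in IntermediateCORT and 8.05 ± 0.27 in injected animals. Injected animals, at 7.78 to 8.48, overlapped LowCORT animals, at 7.73 to 8.27, so the injections were not clearly visible in Sgk1. Arrays of a group correlated across genes at 0.975 to 0.997, and arrays of different groups at 0.974 to 0.998. Of 10 marker genes listed for CA1 pyramidal neurons 5 were on the array, and 4 of them had tested probe sets. Of the 7 striatal marker genes on the array 6 had tested probe sets, so both lists lay mostly above the filter. The difference between the 3' and 5' Gapdh probe sets was taken as a sign of transcript length in the labelled RNA. It was highest for injected animals (1.03 ± 0.60), then LowCORT (0.81 ± 0.24), Sham (0.70 ± 0.22) and IntermediateCORT (0.63 ± 0.21). The same difference for actin was highest for LowCORT (0.93 ± 0.40), then injected animals (0.79 ± 0.69), Sham (0.68 ± 0.41) and IntermediateCORT (0.65 ± 0.36). Injected animal 35 had the highest Gapdh difference, 2.41, but the lowest for actin, 0.04. Injected animal 39 was high for both, at 1.56 and 2.13. Gapdh and actin thus did not rank groups and animals alike.

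None of the 57 tested member probe sets changed in any comparison at an adjusted p under 0.05 by limma. In LowCORT against Sham 0 of 57 members were called, against 1.68% of all probe sets tested. The shares of all probe sets called were 2.14% in IntermediateCORT against LowCORT, 0.343% in injected against LowCORT and 0.196% in injected against IntermediateCORT, with 0 of 57 members in each. They were 0.229% in injected against Sham and 0.0163% in IntermediateCORT against Sham, again with 0 of 57 members. The F test over the 4 groups called 2.27% of all probe sets and 0 of 57 members. At backgrounds this low, a count of 0 among 57 is near the share of all probe sets and is not a result about the members.

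At an unadjusted p under 0.05, limma gave 5 of 57 members in LowCORT against Sham (8.77%), against 13.6% of all probe sets. All 5 were lower in LowCORT, and they belonged to Adcy5 (2 probe sets), Adcy6, Adcyap1 and Rgs4. IntermediateCORT against LowCORT gave 3 (5.26%, against 11.9% of all), and injected against LowCORT gave 2 (3.51%, against 7.37%). Injected against IntermediateCORT gave 9 (15.8%, against 11.4%), 4 higher and 5 lower. Injected against Sham gave 2 (3.51%, against 5.95%) and IntermediateCORT against Sham gave 3 (5.26%, against 4.22%). The F test gave 4, Adcyap1, Gng8, Pde2a and Rgs14 (7.02%, against 11.8%). The members' shares thus lay below the background in 4 comparisons and above it in 2.

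The members' differences were small. Their median absolute log2 difference was 0.065 in LowCORT against Sham, and that of all probe sets was 0.065 too. In IntermediateCORT against LowCORT it was 0.063 for members and 0.061 for all. The signed median of members lay between -0.02 and 0.02 in the 6 comparisons. The 95% confidence interval of a member's difference lay within a 1.25-fold change in either direction for 42 to 47 of the 57, depending on the comparison. It lay within a 1.5-fold change for 55 to 57. For most tested member probe sets, taking 1 comparison at a time, the data therefore bound the difference in array signal to less than 1.25-fold.

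**Figure D1:**
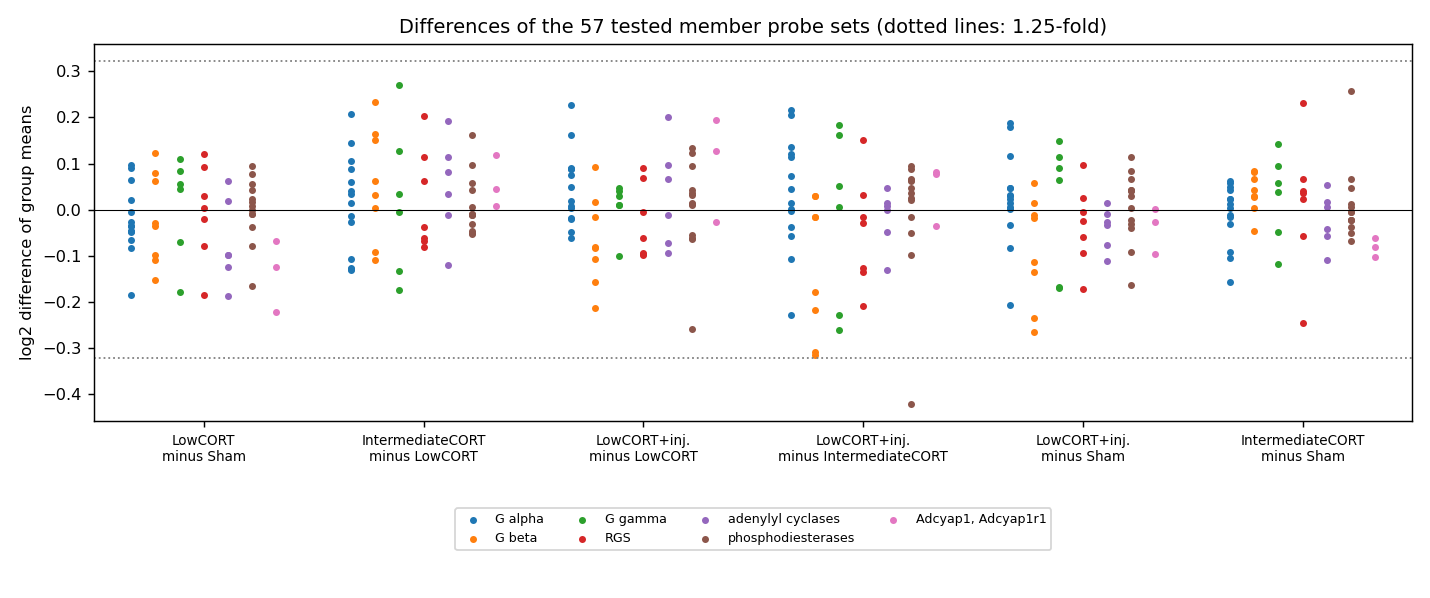
Log2 differences of group means (vertical axis) for the 57 tested member probe sets in each of the 6 comparisons (horizontal axis), coloured by family; each point is a probe set and the dotted lines mark 1.25-fold. Members scatter around 0 in every comparison, and only Pde2a in injected against IntermediateCORT, at -0.42, lies beyond a dotted line.

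Among ligands and receptors the rule found Adcyap1, which encodes PACAP, a neuropeptide that raises cAMP through Gs-coupled receptors, and Adcyap1r1, its preferring receptor PAC1. Adcyap1 has 3 probe sets, and its gene lies at chr9:120550236-120569096 in GRCr8. All 3 had their lowest mean in LowCORT. The dimmest, with a mean of 5.90 over all arrays, fell below the filter and carried the largest difference of the 77. Its log2 values in Sham ran from 5.77 through a median of 5.97 to 6.74, and in LowCORT from 4.96 through 5.56 to 5.78. In IntermediateCORT they ran from 5.32 through 5.88 to 6.30, and in injected animals from 5.51 through 6.06 to 6.75. A single LowCORT animal reached above the lowest Sham animal, and every LowCORT animal lay below the Sham mean. IntermediateCORT and injected animals overlapped both.

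In the fit without the filter, which covers 8740 probe sets, this Adcyap1 probe set fell by 0.61 in LowCORT against Sham (SE 0.14, 1.53-fold, adjusted p = 0.0152 by limma). It was the only 1 of the 77 members called there, where 1.41% of all probe sets were. It rose by 0.62 in injected against LowCORT (SE 0.14, 1.54-fold, adjusted p = 0.0443 by limma), again the only 1 of 77, against 0.252% of all. The F test without the filter called it too (adjusted p = 0.0200 by limma), against 1.73% of all. Without the filter 0 of the 77 were called in IntermediateCORT against LowCORT (1.61% of all), injected against IntermediateCORT (0.114%), injected against Sham (0.126%) or IntermediateCORT against Sham (0.0114%). At an unadjusted p under 0.05 that fit gave 10 of the 77 in LowCORT against Sham (12.5% of all probe sets), 7 in IntermediateCORT against LowCORT (10.5%) and 3 in injected against LowCORT (6.82%). It gave 11 in injected against IntermediateCORT (9.04%), 4 in injected against Sham (5.22%), 3 in IntermediateCORT against Sham (3.66%) and 7 in the F test (10.1%). All 10 injected animals lay above the LowCORT mean. Both comparisons use the same 10 LowCORT arrays, so the fall and the rise are not separate evidence. The fall passed in all 39 fits that left out a single animal, with values of -0.65 to -0.54. The rise passed in 21 of those 39. It was not called without Sham animals 4, 7 or 8, IntermediateCORT animals 12 or 14, LowCORT animals 21, 22, 23, 24, 25, 26 or 29, or injected animals 31, 34, 35, 36, 37 or 39, with adjusted p up to 0.104 by limma. With the 3' to 5' covariates the rise was 0.50 and not called (adjusted p = 0.125 by limma). IntermediateCORT exceeded LowCORT by 0.39 (SE 0.15, adjusted p = 0.236 by limma), with 8 of 9 animals above the LowCORT mean. Injected and Sham animals differed by 0.01 (adjusted p = 0.998 by limma), and IntermediateCORT and Sham by -0.22 (adjusted p = 0.999 by limma). The deposited table used here has no detection call for single arrays, so how far this probe set stands above background is not known.

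The brighter Adcyap1 probe sets gave smaller differences. The middle one ran from 7.45 through a median of 7.58 to 7.98 in Sham, and from 7.15 through 7.44 to 7.60 in LowCORT. It ran from 7.36 through 7.49 to 7.69 in IntermediateCORT and from 7.43 through 7.57 to 7.99 in injected animals. All 10 LowCORT animals lay below the Sham mean, while the ranges overlapped. LowCORT differed from Sham by -0.22 (SE 0.07, adjusted p = 0.0977 by limma) and injected from LowCORT by 0.20 (SE 0.07, adjusted p = 0.448 by limma), so neither passed. The brightest had means of 8.65 ± 0.14 in Sham and 8.52 ± 0.14 in LowCORT, with 8.57 ± 0.21 in IntermediateCORT and 8.65 ± 0.17 in injected animals. Its LowCORT difference of -0.12 (SE 0.07, adjusted p = 0.488 by limma) did not pass. The call on Adcyap1 thus rests on its dimmest probe set alone.

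**Figure D2:**
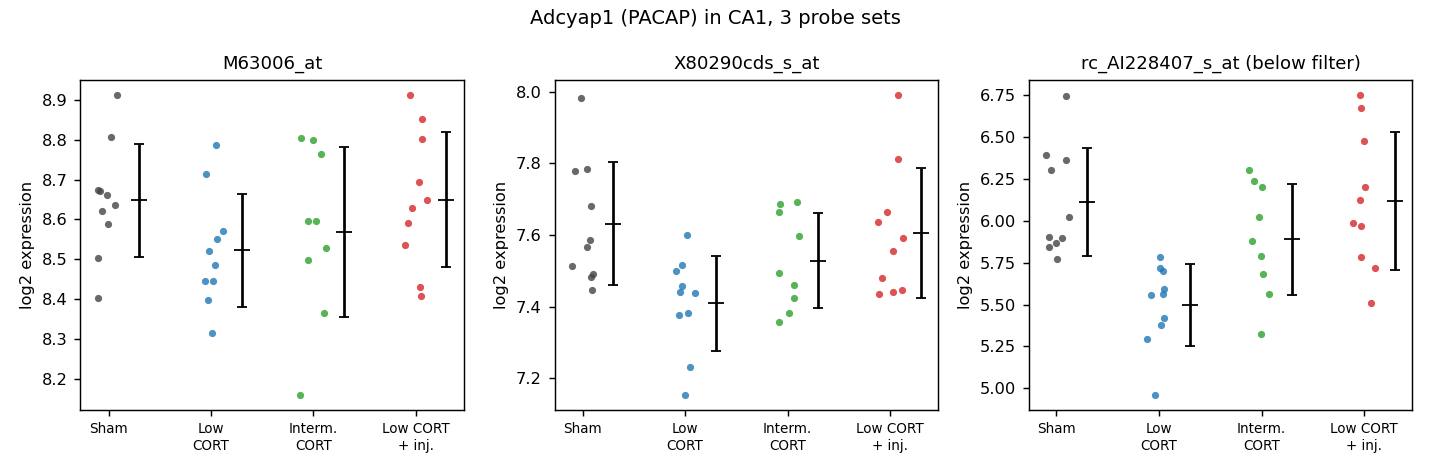
Log2 expression (vertical axis) of the 3 Adcyap1 probe sets, brightest at left and dimmest at right, in the 4 groups (horizontal axis); points are animals, bars are means ± SD. In the right panel LowCORT animals sit between 4.96 and 5.78 and Sham animals between 5.77 and 6.74; the spread of the groups overlaps more in the other panels.

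Markers of other cells are given beside this difference, for LowCORT against Sham, where 1.68% of all probe sets were called. Averaged per animal, 3 dentate granule cell genes had log2 levels of 7.15 to 7.32 in Sham and 6.80 to 7.25 in LowCORT. They had 7.06 to 7.39 in IntermediateCORT and 7.09 to 7.31 in injected animals. Such averages use every listed gene on the array, also those below the filter, here Tdo2 with a mean of 3.94. The 3 dentate probe sets tested were of 2 genes. Of these probe sets 1 was called, Calb1, lower in LowCORT than in Sham, while the median difference of the 3 was 0.03. The 11 interneuron genes averaged 9.05 to 9.24 in Sham and 8.87 to 9.16 in LowCORT, with 2 of 12 probe sets called, Gad1 and Calb2, both lower. Calb2 is also on the thalamus list, where it was the 1 call on 3 probe sets. The 5 CA3 and CA2 genes averaged 7.85 to 8.14 in Sham and 7.68 to 8.01 in LowCORT, with 0 of 6 probe sets called. Of 7 probe sets for CA1 pyramidal neurons 3 were called, all higher in LowCORT, for Dcn and Nr3c2. Microglia had 2 higher of 11 (Aif1 and Fcgr2b), endothelial cells and pericytes 1 higher of 8 (Slco1a4), and choroid plexus 1 higher and 1 lower of 8 (among Enpp2 and Igfbp2). Striatum (7 probe sets), astrocytes (17), oligodendrocytes (13) and blood cells (3) had 0 calls. By the same averages, Sham and LowCORT means were 7.34 and 7.51 for endothelial cells and pericytes and 7.39 and 7.48 for microglia. They were 7.72 and 7.87 for CA1 neurons, 7.57 and 7.61 for choroid plexus and 10.09 and 10.11 for blood cells. Lower in LowCORT were striatum (7.85 and 7.73), thalamus (8.01 and 7.94), astrocytes (9.83 and 9.72) and oligodendrocytes (10.62 and 10.58). The part of these cells in the Adcyap1 difference was not tested. In bulk tissue, fewer cells of a type and less RNA per cell cannot be told apart.

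The receptor had no difference past the threshold. Adcyap1r1 had 1 tested probe set, with means of 6.44 in Sham and 6.37 in LowCORT, with 6.38 in IntermediateCORT and 6.34 in injected animals. None of its comparisons passed, and its other 2 probe sets lay below the filter with differences from LowCORT to Sham of -0.01 and -0.03.

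G alpha subunits were represented by 9 genes, of which 7 were tested on 14 probe sets. Gnas, the stimulatory subunit, had 4 probe sets, and all 4 lay within 0.07 of Sham in LowCORT. The brightest had means of 13.44 ± 0.06 in Sham and 13.40 ± 0.07 in LowCORT, with 13.44 ± 0.08 in IntermediateCORT and 13.40 ± 0.08 in injected animals. Gnal, the related subunit of olfactory and striatal neurons, was below the filter, with means of 5.57 to 5.71. Gnat3, the taste subunit gustducin, was below it too, with means of 3.50 to 3.57.

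Gnai2, an inhibitory subunit, gave 3 of the 9 unadjusted differences between injected and IntermediateCORT animals. Its first probe set ran from 9.55 through a median of 9.63 to 9.70 in IntermediateCORT and from 9.54 through 9.75 to 10.04 in injected animals. It ran from 9.50 through 9.70 to 9.99 in Sham and from 9.52 through 9.74 to 9.98 in LowCORT. IntermediateCORT animals lay close together, near the low end of the range that the other groups spanned. Injected animals exceeded them by 0.14, 0.20 and 0.22 on the 3 probe sets (SE 0.07, 0.09 and 0.10; adjusted p = 0.426, 0.362 and 0.418 by limma). The probe sets report on 1 gene and are not separate evidence.

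Other G alpha subunits did not differ past the threshold either, among them the inhibitory Gnai1 and Gnaz. Gnai1 had means of 8.48 ± 0.37 in Sham and 8.30 ± 0.40 in LowCORT, with 8.50 ± 0.30 in IntermediateCORT and 8.28 ± 0.33 in injected animals, a spread within groups as wide as any difference between them. Gnaz, the pertussis toxin resistant member of the inhibitory class, had 8.79, 8.79, 8.80 and 8.81 in the same order on its tested probe set. Its probe set below the filter was higher by 0.28 in IntermediateCORT than in LowCORT (SE 0.13, adjusted p = 0.419 by limma). Gna12 had 6.74, 6.69, 6.79 and 6.92 on the dimmer of its 2 probe sets. Gna15, of the Gq class, had 8.45, 8.55, 8.44 and 8.48. No difference of these genes passed.

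Gnao1, a G alpha abundant in neurons, had 2 probe sets with means of 9.87 to 10.02 and of 10.93 to 11.00. It is the 1 member with a full cAMP response element in a promoter window, and that stretch is shown for this reason. Windows from 250 bases before to 50 after the start of transcription, from RefSeq on GRCr8, were found for 36 of the 49 members, 47 windows in all. The palindrome TGACGTCA, the same on both strands, was in 1 of the 47 and in 1.83% of 33469 windows of all genes. In the stretch at chr19:11198525-11198584, on the minus strand, capitals mark the element, which begins 121 bases before the start.
Gnao1: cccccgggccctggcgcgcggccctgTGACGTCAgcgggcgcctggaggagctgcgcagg
The full palindromic glucocorticoid response element, also searched on both strands, was in 0 of the 47 windows and in 0.0149% of all. The shorter TGTTCT, which the longer motif contains, was in 2 of the 47, both of Pde4d, and in 20.7% of all. A match is a stretch of letters and says nothing of binding, and no match covers only these windows.

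G beta subunits, 5 genes on 8 tested probe sets, gave 2 unadjusted differences, both of Gnb5. Gnb5 is the beta subunit that pairs with RGS proteins of the R7 class such as Rgs9. Its first probe set ran from 8.73 through a median of 9.18 to 9.44 in IntermediateCORT and from 8.13 through 9.00 to 9.38 in injected animals. In Sham it ran from 8.64 through 9.09 to 9.45, and in LowCORT from 8.35 through 8.99 to 9.45. The highest animals were alike in all groups, and the groups differed at their low ends. Injected animals differed from IntermediateCORT by -0.31 and -0.32 on the 2 probe sets (SE 0.14 for both, adjusted p = 0.377 for both by limma).

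These Gnb5 values followed the Gapdh difference described above. Over the 39 animals Pearson's r was -0.804 and Spearman's rho -0.822 (permutation p = 1e-05 each, the smallest the permutations can give; adjusted p = 2.49e-04 and 1.61e-04 over the relations of all 6118 probe sets). It was -0.844 once the 2 animals with the most extreme Gapdh difference, injected animals 35 and 39, were set aside. The groups taken singly gave -0.880 (Sham), -0.789 (LowCORT), -0.845 (IntermediateCORT) and -0.804 (injected). With the Gapdh and actin differences as covariates, injected animals differed from IntermediateCORT by -0.07 and -0.08 (unadjusted p = 0.279 and 0.266 by limma). The Gnb5 difference thus shrank from -0.31 and -0.32 to these values on the 2 probe sets.

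Gnb1, a widely expressed beta subunit, had 3 probe sets that did not behave alike. On the first, r with the Gapdh difference was -0.658 and rho -0.893, and on the third r was 0.449 and rho 0.667 (adjusted permutation p = 0.0183 and 2.79e-04). Without the 2 farthest animals r was -0.909 and 0.625. Within Sham, LowCORT, IntermediateCORT and injected animals r on the first was -0.963, -0.967, -0.914 and -0.471, and on the third it was 0.523, 0.734, 0.714 and 0.521. So 2 probe sets of 1 gene followed this measure in opposite directions. Gnb1 differed between LowCORT and Sham by -0.10, 0.08 and 0.12 on the 3 probe sets, and no difference passed. Gnb2 (10.02, 9.99, 10.05 and 10.08 in Sham, LowCORT, IntermediateCORT and injected animals), Gnb3 (6.79, 6.76, 6.80 and 6.78) and Gnb4 (6.34, 6.40, 6.29 and 6.32) did not pass either.

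Of the 57 tested members, 18 (31.6%) were related to the Gapdh difference by both r and rho at an adjusted permutation p under 0.05, 3 positively and 15 negatively. The share of all 6118 probe sets was 19.6%, with 517 positive and 681 negative. Several of the 18 belong to the same gene. All 18 had the same sign of r within each of the 4 groups. They included probe sets of Gng7, Gnai1, Gnai2, Gnao1, Gnas, Rgs8, Pde2a and Adcyap1r1, but not those of Rgs14, Adcy5, Adcy6, Pde3a or Adcyap1. With the covariates, members at an unadjusted p under 0.05 numbered 7 of 57 in LowCORT against Sham (13.6% of all probe sets in that fit), 7 in IntermediateCORT against LowCORT (13%) and 6 in injected against LowCORT (6.75%). They numbered 4 in injected against IntermediateCORT (8.06%), 1 in injected against Sham (4.02%) and 4 in IntermediateCORT against Sham (6.88%). Members called at an adjusted p under 0.05 in that fit were 0 in each. By gene, the unadjusted 7 in LowCORT against Sham were of Adcy6, Adcyap1, Gna15, Rgs12, Rgs19 and Rgs4, so Adcy5 dropped out. The 4 in injected against IntermediateCORT were of Adcy2, Gna12, Pde2a and Rgs4, so Gnai2, Gnb5, Gng8 and Rgs8 dropped out. The 1 in injected against Sham was of Gna12, so Adcy6 and Rgs8 dropped out.

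**Figure D3:**
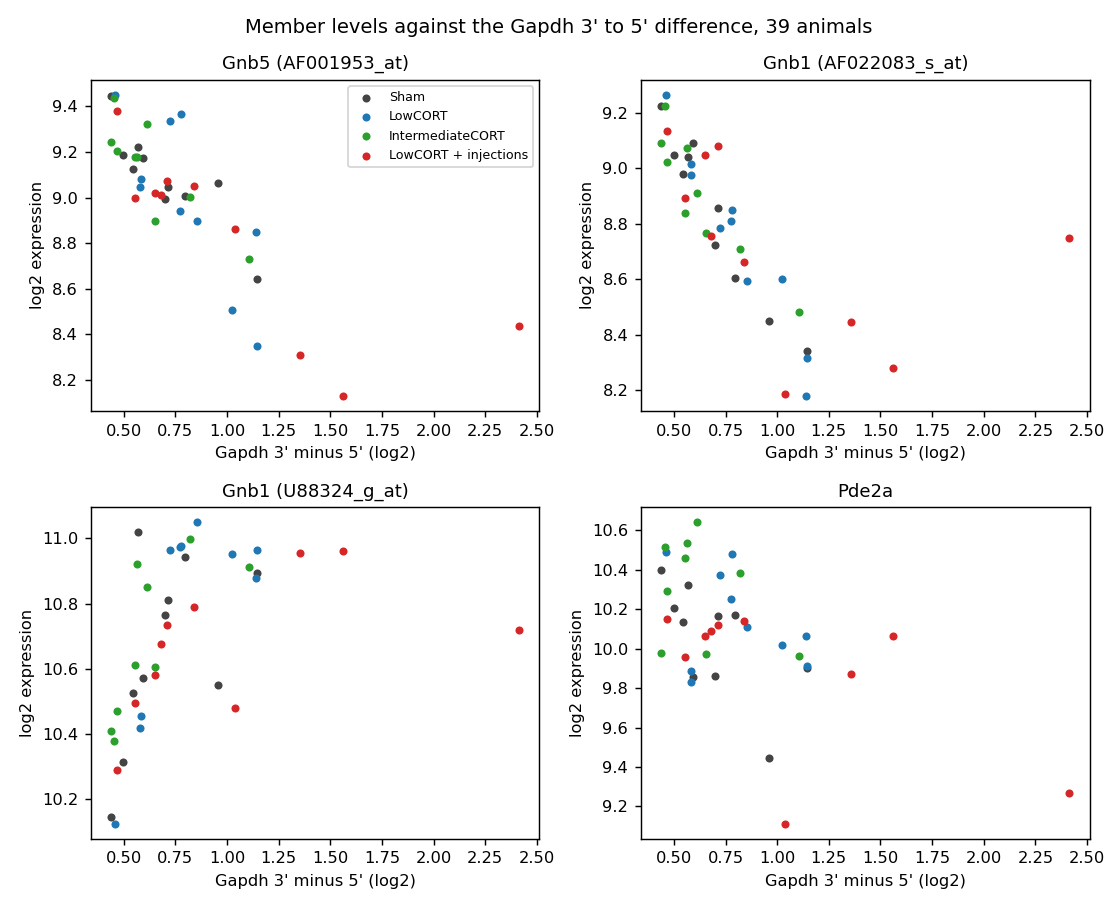
Log2 expression (vertical axes) of Gnb5, 2 probe sets of Gnb1 and Pde2a against the log2 difference between the 3' and 5' Gapdh probe sets (horizontal axes); each point is an animal, coloured by group. Gnb5 runs downward with r = -0.804, the 2 Gnb1 panels run in opposite directions with rho = -0.893 and 0.667, and a single injected animal stands far to the right at 2.41.

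G gamma subunits, 5 genes with 4 tested on 6 probe sets, were led by Gng8, a subunit known from olfactory and vomeronasal neurons. Its brighter probe set had means of 7.33 ± 0.16 in Sham and 7.38 ± 0.17 in LowCORT, with 7.21 ± 0.11 in IntermediateCORT and 7.39 ± 0.14 in injected animals. IntermediateCORT ran from 7.06 to 7.38, LowCORT from 7.05 to 7.66 and injected animals from 7.22 to 7.69, so the ranges overlapped. IntermediateCORT differed from LowCORT by -0.17 (SE 0.07, adjusted p = 0.252 by limma) and injected animals from IntermediateCORT by 0.18 (SE 0.07, adjusted p = 0.281 by limma). When arrays were weighted by their noise, the first of these passed at -0.20 (SE 0.06, adjusted p = 0.0345 by limma), in a fit that called 5.52% of all probe sets. The other Gng8 probe set differed by -0.01 in that comparison.

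Gng7, the gamma subunit that pairs with Gnal in striatum, gave the largest positive difference of the 57 tested members in IntermediateCORT against LowCORT, 0.27 on its dimmer probe set. Its means were 7.44 ± 0.29 in Sham and 7.27 ± 0.24 in LowCORT, with 7.54 ± 0.30 in IntermediateCORT and 7.28 ± 0.43 in injected animals, and it did not pass. Gng5 had 9.79, 9.88, 9.74 and 9.91 in the same order on its brighter probe set, and Gng10 had 9.30, 9.41, 9.45 and 9.45. Gng11, below the filter, had 6.07 ± 0.08, 6.23 ± 0.18, 6.05 ± 0.09 and 6.25 ± 0.14, higher in both groups on the 25 mg pellet. It did not pass in any comparison of the fit without the filter.

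RGS proteins, 9 genes with 6 tested on 7 probe sets, were led by Rgs14. It binds inhibitory G alpha subunits and is known in the hippocampus as a protein of CA2 neurons that holds back synaptic potentiation. Its log2 values ran from 9.91 through a median of 10.19 to 10.41 in Sham and from 10.02 through 10.20 to 10.48 in LowCORT. They ran from 10.14 through 10.40 to 10.57 in IntermediateCORT and from 10.14 through 10.22 to 10.63 in injected animals. IntermediateCORT was the highest group, with 8 of 9 animals above the means of Sham and of LowCORT, and its range overlapped those of all others. It exceeded LowCORT by 0.20 (SE 0.07, adjusted p = 0.162 by limma) and Sham by 0.23 (SE 0.07, adjusted p = 0.667 by limma). Neither passed, and each had the smallest p of the 57 tested members in its comparison. The 5 CA3 and CA2 marker genes averaged 7.76 to 8.15 per animal in IntermediateCORT and 7.80 to 8.04 in injected animals. Those ranges overlapped the Sham and LowCORT ranges given above, and the part of CA2 tissue in the Rgs14 values was not tested.

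Rgs4, which acts on Gi and Gq and is rich in forebrain neurons, was highest in Sham. It ran from 6.68 through a median of 7.26 to 7.41 in Sham and from 6.78 through 7.00 to 7.31 in LowCORT. It ran from 6.72 through 6.91 to 7.39 in IntermediateCORT and from 6.77 through 7.11 to 7.37 in injected animals. The groups overlapped over most of their ranges. LowCORT differed from Sham by -0.18 (SE 0.09, adjusted p = 0.357 by limma) and IntermediateCORT from Sham by -0.25 (SE 0.09, adjusted p = 0.886 by limma).

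Rgs8, a related protein, had means of 7.49 ± 0.21 in Sham and 7.42 ± 0.20 in LowCORT, with 7.53 ± 0.17 in IntermediateCORT and 7.32 ± 0.18 in injected animals on its brighter probe set. Injected animals differed from IntermediateCORT by -0.21 (SE 0.09, adjusted p = 0.352 by limma) and from Sham by -0.17 (SE 0.08, adjusted p = 0.830 by limma). With the 3' to 5' covariates Rgs8 had no unadjusted p under 0.05 by limma in either comparison. Rgs9, the R7 protein best known from striatum and retina, had 7.92, 7.90, 7.86 and 7.89 in Sham, LowCORT, IntermediateCORT and injected animals. Rgs12 had 8.79, 8.91, 8.83 and 8.81, and Rgs19 had 8.13, 8.23, 8.16 and 8.13. None of these passed. Rgs1, Rgs18 and Rgs22 were below the filter, with group means between 3.85 and 5.43. Without the filter Rgs1 differed between LowCORT and Sham by -0.42 (SE 0.19, adjusted p = 0.357 by limma).

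**Figure D4:**
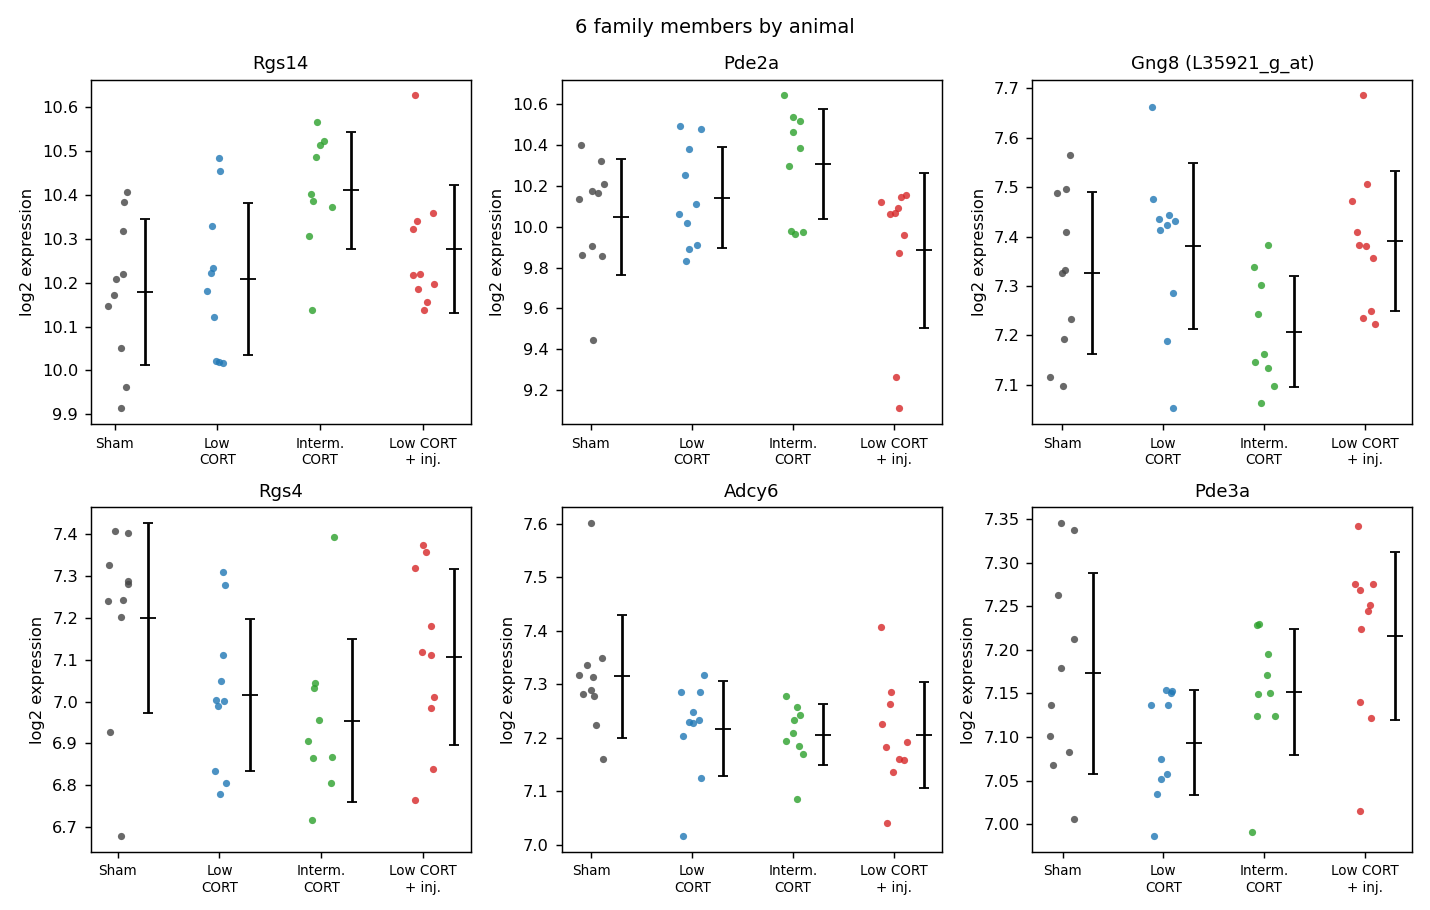
Log2 expression (vertical axes) of Rgs14, Pde2a, Gng8, Rgs4, Adcy6 and Pde3a in the 4 groups (horizontal axes); points are animals, bars are means ± SD. IntermediateCORT is highest for Rgs14 (10.41) and Pde2a (10.30) and lowest for Gng8 (7.21), Sham is highest for Rgs4 (7.20) and Adcy6 (7.32), and the ranges of all groups overlap.

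Adenylyl cyclases, 7 genes with 5 tested on 6 probe sets, gave 3 of the 5 unadjusted differences between LowCORT and Sham. They belonged to Adcy5 and Adcy6, the closely related cyclases that Gi and calcium inhibit. The first Adcy5 probe set ran from 8.15 through a median of 8.21 to 8.38 in Sham and from 7.94 through 8.18 to 8.24 in LowCORT. It ran from 8.12 through 8.25 to 8.37 in IntermediateCORT and from 8.03 through 8.22 to 8.39 in injected animals. LowCORT was the lowest group and overlapped all others. It differed from Sham by -0.10 and -0.12 on the 2 tested probe sets (SE 0.04 and 0.05, adjusted p = 0.292 and 0.271 by limma). On the Adcy5 probe set below the filter the difference was -0.15 (SE 0.07, adjusted p = 0.319 by limma). On each of the 3, 9 of 10 LowCORT animals lay below the Sham mean. IntermediateCORT exceeded LowCORT by 0.11 on the first (SE 0.04, adjusted p = 0.243 by limma). With the 3' to 5' covariates Adcy5 had no unadjusted p under 0.05 by limma in LowCORT against Sham. In IntermediateCORT against LowCORT it still did.

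Adcy6 had its highest mean in Sham and near-equal means in the adrenalectomized groups. It ran from 7.16 through a median of 7.30 to 7.60 in Sham and from 7.02 through 7.23 to 7.32 in LowCORT. It ran from 7.08 through 7.21 to 7.28 in IntermediateCORT and from 7.04 through 7.19 to 7.41 in injected animals. The 3 adrenalectomized groups had means of 7.22, 7.21 and 7.20 against 7.32 in Sham, and their ranges overlapped it. The differences from Sham were -0.10, -0.11 and -0.11 (SE 0.05 each; adjusted p = 0.326, 0.998 and 0.694 by limma). These comparisons share the Sham arrays, so their like sizes are not separate evidence.

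No difference of the other cyclases passed. Adcy2, which beta-gamma subunits stimulate, ran from 10.64 through a median of 10.89 to 11.04 in IntermediateCORT and from 10.55 through 10.78 to 10.88 in injected animals. All 10 injected animals lay below the IntermediateCORT mean, with overlapping ranges, and the difference was -0.13 (SE 0.05, adjusted p = 0.315 by limma). Adcy3, a cyclase of neuronal cilia, had means of 8.78 ± 0.14 in Sham and 8.59 ± 0.16 in LowCORT, with 8.78 ± 0.08 in IntermediateCORT and 8.79 ± 0.42 in injected animals, and did not pass. Adcy10, the soluble cyclase that bicarbonate activates, had 6.63, 6.70, 6.58 and 6.63 in the same order. Adcy8, which calcium and calmodulin stimulate, lay below the filter with 6.13 ± 0.15, 6.27 ± 0.12, 6.07 ± 0.12 and 6.15 ± 0.10. Its IntermediateCORT against LowCORT difference of -0.20 had an adjusted p of 0.0684 by limma in the fit without the filter. Adcy4, also below it, had group means of 5.84 to 5.89.

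Phosphodiesterases, 12 genes with 9 tested on 13 probe sets, held the largest difference among tested members. Pde2a, which hydrolyses cAMP and cGMP and is activated by cGMP, ran from 9.45 through a median of 10.15 to 10.40 in Sham and from 9.83 through 10.09 to 10.49 in LowCORT. It ran from 9.96 through 10.38 to 10.64 in IntermediateCORT and from 9.11 through 10.06 to 10.15 in injected animals. All 10 injected animals lay below the IntermediateCORT mean, and the ranges overlapped between 9.96 and 10.15. Injected animals 34 and 35, at 9.11 and 9.27, were the lowest of all 39. The difference was -0.42 (SE 0.13, 1.34-fold, 95% confidence interval -0.69 to -0.15, adjusted p = 0.179 by limma).

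Pde2a was also related to the Gapdh difference, with r of -0.568 and rho of -0.468 (adjusted permutation p = 0.00639 and 0.0153). Setting the same 2 animals aside gave an r of -0.475, and the groups taken singly gave -0.641 (Sham), -0.306 (LowCORT), -0.353 (IntermediateCORT) and -0.597 (injected). With the 3' to 5' covariates the Pde2a difference was -0.25 (unadjusted p = 0.0489 by limma), and without injected animals 35 and 39 it was -0.37 (unadjusted p = 0.00875 by limma).

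Pde3a, a phosphodiesterase that cGMP inhibits, had the smallest adjusted p of the 57 tested members in injected against LowCORT, tied with the middle Adcyap1 probe set. It ran from 6.99 through a median of 7.11 to 7.15 in LowCORT and from 7.01 through 7.25 to 7.34 in injected animals. It ran from 7.01 through 7.16 to 7.35 in Sham and from 6.99 through 7.15 to 7.23 in IntermediateCORT. LowCORT animals were the most tightly grouped, and 9 of 10 injected animals lay above their mean. The difference was 0.12 (SE 0.04, adjusted p = 0.448 by limma).

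The cAMP-specific class 4 enzymes, the targets of rolipram, showed no difference past the threshold. Pde4b had 4 probe sets, and on the brightest its means were 9.58 ± 0.19 in Sham and 9.63 ± 0.14 in LowCORT, with 9.62 ± 0.23 in IntermediateCORT and 9.64 ± 0.25 in injected animals. On its probe set below the filter, injected animals differed from IntermediateCORT by -0.27 (SE 0.12, adjusted p = 0.490 by limma). From Sham they differed there by -0.26 (SE 0.12, adjusted p = 0.942 by limma). Pde4a had 9.46, 9.46, 9.41 and 9.50 on its brighter probe set, Pde4c had 8.57, 8.58, 8.55 and 8.61, and Pde4d had 6.40, 6.44, 6.39 and 6.38. The calmodulin-stimulated enzymes gave 8.03, 8.05, 8.04 and 7.99 for Pde1b and 6.32, 6.34, 6.28 and 6.35 for Pde1c. Pde6d, a carrier of prenylated proteins rather than an enzyme, had 8.50, 8.58, 8.57 and 8.62. Pde3b, Pde5a and Pde7a were below the filter, with group means of 4.74 to 6.23.

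Genes up and down the same pathway were counted from 5 lists. Kinases, anchors and targets of cAMP gave 0 calls on 26 tested probe sets (16 genes) in each of the 6 comparisons and the F test. The genes of cGMP synthesis and action gave 0 on 10 (6 genes), the receptor kinases, arrestins and other regulators gave 0 on 18 (8 genes), and the Gi-gated potassium channels gave 0 on 1. Effectors of Gq had 25 tested probe sets (13 genes), of which 1 rose and 1 fell in IntermediateCORT against LowCORT, where 2.14% of all probe sets were called. Dgkg, a diacylglycerol kinase, rose by 0.40 (SE 0.10, adjusted p = 0.0138 by limma). Prkcd, a protein kinase C that diacylglycerol activates, fell by 0.29 (SE 0.08, adjusted p = 0.0453 by limma) on its dimmer probe set. That probe set had a mean of 6.37 over all arrays, and the brighter Prkcd probe set, at 7.72, was not called. Prkcd also stands on the list of thalamic markers. In the other 5 comparisons this list gave 0 calls, and the F test called Dgkg alone (adjusted p = 0.0271 by limma).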

How the data were processed

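CA1 RNA of 39 rats was measured on Affymetrix arrays, 1 per animal. The series table deposited by the authors holds log2 expression values. Per the submitters' processing notes MAS5, RMA and R 2.7.1 were used, in a role not given in the sources used here. Array medians lay between 7.27 and 7.33, and no further normalization was applied. Groups came from the labels. The 59 control probe sets were left out. The 6118 of 8740 other probe sets with a mean at or above the 30th percentile went into limma (version 3.58.1, R 4.3.3), which fitted a mean for each group and kept 35 residual degrees of freedom. Benjamini-Hochberg adjustment over all 6118 was done for each of 6 comparisons and the F test, two-sided, at 0.05. The number of arrays limits the precision. Permutation tests used 1e+05 resamples and were adjusted over all 6118 probe sets. Genes were named from the platform annotation, and all 49 members matched RefSeq symbols on GRCr8. Alternatives were another scaling, filter, weighting, prior, covariates and leaving out animals. The fitting steps were tested on simulated data. Described in full were members called in any comparison and, per family, up to 4 tested genes with the smallest p of the F test; members at an unadjusted p under 0.05 were added after their values were seen. The members and lists were chosen with earlier results of these data known.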

Additional observations from a re-analysis of the deposited data

Results flagged for a closer look

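Among the 188 series of values looked at (a described member probe set in 1 group), 21 had an animal at the highest or lowest end that stood far from the others by Dixon's criterion. Chance flags about 1 in 20 such series. Sham held 6 of them, LowCORT 5, IntermediateCORT 4 and the injected group 6.

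For cyclases, Adcy5 was low at 7.94 in LowCORT animal 20, low at 7.19 in injected animal 38 on its second probe set, and high at 5.53 in IntermediateCORT animal 19 and 5.69 in Sham animal 5 on its dimmest. Adcy6 was high at 7.60 in Sham animal 5. For RGS proteins, Rgs14 was high at 10.63 in injected animal 33, Rgs4 at 7.39 in IntermediateCORT animal 17 and Rgs8 at 7.91 in LowCORT animal 21. For phosphodiesterases, Pde3a was low at 6.99 in IntermediateCORT animal 13. Pde4b was high at 6.03 in LowCORT animal 21, 6.92 in injected animal 38 and 9.95 in LowCORT animal 29, each on a different probe set.

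For G protein subunits, Gna15 was high at 8.71 in Sham animal 6. Gnb2 was high at 10.81 in the same animal and at 10.76 in injected animal 34, and Gnb1 was low at 9.60 in injected animal 34. Gng7 was low at 9.29 in Sham animal 6, and Gng8 was low at 7.02 in injected animal 37. The dim probe set of Gng5 was high at 5.28 in IntermediateCORT animal 19, low at 4.61 in LowCORT animal 22 and high at 6.08 in Sham animal 5.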

How the results depend on the processing

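Members called stayed at 0 in all 6 comparisons and the F test in each fit that left out a single animal (0 to 0), and under the stricter filter, both other scalings, the trended robust prior, the covariates, subject order and, where it applies, the fit on 2 groups. Without the filter, 1 member (Adcyap1, its dimmest probe set) was called in LowCORT against Sham, 1 in injected against LowCORT and 1 in the F test, since the filter keeps that probe set out of the tests. With array weights, 1 (Gng8) was called in IntermediateCORT against LowCORT, and the cause was not tested. The Adcyap1 fall in LowCORT passed under all 8 other settings tried with it (-0.63 to -0.60). Its rise in injected animals passed under 4 of 8, with adjusted p from 0.0153 to 0.174 by limma, and its IntermediateCORT difference passed under array weights only (adjusted p = 0.0472 by limma). These settings for Adcyap1, and leaving out injected animals 35 and 39, were chosen after seeing the data. The tracked differences of Adcyap1, Gng8, Pde2a and Rgs14 kept their sign under every setting tried. Scaling moved the median of all probe sets by less than 0.011. No paired analysis was possible because no animal number is shared between groups.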
